A study of Mus musculus with 99 samples.

Results

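The genes described here are 7 genes of cellular cholesterol handling, Hmgcs1, Sqle, Idi1, Fdft1, Lss, Insig1 and Abca1, out of the 55335 gene identifiers counted in the series. They were chosen by name, with their levels in 5 brain regions and their fentanyl-against-water values already known, so those values are given below as a description, with standard errors and nothing read from whether a member passed a threshold. The working name of the set also speaks of uptake, but none of the 7 is an uptake gene, and uptake receptors were read from a separate list of 41 other genes of the pathway. The study sequenced bulk RNA from tissue punches of juvenile wildtype C57BL/6 mice. Their dams drank water with fentanyl at 10 µg/ml, an opioid, from embryonic day 0 until weaning, or plain water. Punches were taken in the nucleus accumbens (NAc), in 2 cortical areas, prelimbic (PrL) and somatosensory (S1), in the ventrobasal part of the thalamus (VBT) and in the ventral tegmental area (VTA) of the midbrain. Region, sex and drink of the dam gave 20 groups of 5 libraries each, except S1 from males of water-drinking dams with 4, for 99 libraries in all. In the text, "fentanyl" and "water" stand for what the dam drank. The labels name neither litters nor exact ages, nor do they say that libraries of a group came from separate animals, so a test here measures the spread between libraries, whatever its source.

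Cells make cholesterol from acetyl-CoA through the mevalonate pathway, in which isoprenoid units are joined to squalene, and squalene is closed to lanosterol and trimmed to cholesterol. When sterols in the endoplasmic reticulum run low, the transcription factor SREBP-2 is carried by SCAP to the Golgi, cut there, and raises the synthesis genes together, while the liver X receptors raise efflux genes when sterols are plentiful. The blood-brain barrier keeps plasma lipoproteins out, so the brain makes its own cholesterol. Much of it is made by oligodendrocytes during myelination, and astrocytes pass cholesterol to neurons on lipoprotein particles.

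The members stand at different steps of this circuit. Hmgcs1 encodes the cytosolic HMG-CoA synthase, Idi1 the isopentenyl diphosphate isomerase, Fdft1 squalene synthase, Sqle squalene epoxidase, and Lss lanosterol synthase. Insig1 encodes an endoplasmic reticulum protein that holds SCAP back when sterols are present, and is itself a target of SREBP. Abca1 encodes the transporter that loads cholesterol and phospholipid onto lipid-poor apolipoproteins, and is a target of the liver X receptors. On GRCm38, Hmgcs1 lies on chromosome 13 at 119690379 to 119708260, Idi1 on chromosome 13 at 8885501 to 8892451, Fdft1 on chromosome 14 at 63145150 to 63179578 and Sqle on chromosome 15 at 59315077 to 59331192. Lss lies on chromosome 10 at 76531588 to 76557138, Insig1 on chromosome 5 at 28071363 to 28078662 and Abca1 on chromosome 4 at 53030787 to 53159895. All 7 are protein coding, and the counts cover their exons. Hmgcs1, Idi1 and Lss each overlap a gene on the other strand (Gm48342, Gm48574 and 4930483K19Rik), and Fdft1 overlaps the protein-coding gene Ctsb. Whether counting used strand is not given in the sources used here, so reads of such partners cannot be told apart.

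RefSeq promoters (GRCm38.p6, 250 bases before to 50 after the transcript start) were at hand for 5 of the 7 members. They are shown because 6 of the 7 members varied together across libraries (below) while Abca1 did not. Sqle and Fdft1 have no entry in the table. Capitals mark matches on either strand to the SREBP-type core TCACNCCAC and to the NF-Y box CCAAT. Read from the other strand, that box is ATTGG.
Hmgcs1, chr13:119690101-119690400, plus strand: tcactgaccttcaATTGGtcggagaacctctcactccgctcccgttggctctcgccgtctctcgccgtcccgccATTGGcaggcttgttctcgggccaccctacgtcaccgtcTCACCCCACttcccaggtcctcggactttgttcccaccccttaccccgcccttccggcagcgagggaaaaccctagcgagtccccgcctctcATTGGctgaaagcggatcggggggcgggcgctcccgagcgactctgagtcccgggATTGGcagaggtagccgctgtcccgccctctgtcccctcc
Idi1, chr13:8885356-8885655, plus strand: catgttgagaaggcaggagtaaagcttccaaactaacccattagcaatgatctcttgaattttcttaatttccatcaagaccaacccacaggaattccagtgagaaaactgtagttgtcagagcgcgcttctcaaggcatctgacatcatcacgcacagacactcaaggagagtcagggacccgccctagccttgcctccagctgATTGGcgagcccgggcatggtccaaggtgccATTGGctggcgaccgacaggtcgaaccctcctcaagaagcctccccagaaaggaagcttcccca
Lss, chr10:76531355-76531654, plus strand: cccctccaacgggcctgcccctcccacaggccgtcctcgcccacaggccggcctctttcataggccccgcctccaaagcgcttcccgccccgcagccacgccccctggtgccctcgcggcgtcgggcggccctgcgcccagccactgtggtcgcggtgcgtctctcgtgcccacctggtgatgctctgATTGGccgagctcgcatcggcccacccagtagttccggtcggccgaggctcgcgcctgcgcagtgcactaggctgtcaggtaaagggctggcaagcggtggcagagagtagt
Insig1, chr5:28071162-28071461, plus strand: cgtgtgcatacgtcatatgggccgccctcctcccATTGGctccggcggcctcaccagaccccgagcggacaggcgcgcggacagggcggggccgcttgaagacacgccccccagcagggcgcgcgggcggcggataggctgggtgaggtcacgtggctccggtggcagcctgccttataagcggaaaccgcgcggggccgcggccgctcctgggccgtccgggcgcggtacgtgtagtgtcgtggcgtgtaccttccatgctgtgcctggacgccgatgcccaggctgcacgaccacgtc
Abca1, chr4:53159846-53160145, minus strand: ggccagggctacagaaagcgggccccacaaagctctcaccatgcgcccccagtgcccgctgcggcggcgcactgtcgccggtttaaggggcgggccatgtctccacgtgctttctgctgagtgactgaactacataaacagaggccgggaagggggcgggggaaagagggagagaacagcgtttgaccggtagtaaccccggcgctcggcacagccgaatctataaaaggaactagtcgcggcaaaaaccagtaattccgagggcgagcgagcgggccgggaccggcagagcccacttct

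The Hmgcs1 window held 1 match to the SREBP-type core, 137 bases before the start, and 4 NF-Y boxes. That core occurred in 1.24% of the 32851 RefSeq promoter windows of this length. The windows of Idi1, Lss and Insig1 held 2, 1 and 1 NF-Y boxes and no match to these core letters. The Abca1 window held neither motif. The NF-Y box, with 5 letters, occurred in 37.4% of all windows. The E-box CACGTG, found in 7.15% of all windows, occurred once each in Insig1 and Abca1, and the Sp1 box GGGCGG, found in 35.7%, occurred in all 5. A match is a description of letters and not evidence of binding.

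Depth and library quality were as follows. Counts over genes ranged from 16515545 to 52069639 per library, and member values are counts scaled to that total (CPM). One library, VTA male water 3, detected 6333 genes, where each of the others detected 24079 or more, and was left out as the rule for the members states, leaving 98. In every region, all 7 members passed the filter on low counts. Each region showed its own markers, with the 6 striatal markers highest in NAc (mean log2 score 8.23) and the 5 cortical markers highest in PrL (6.98) and S1 (6.77). Within VTA, the score of 6 VTA markers ran from 3.94 to 6.47, with summed levels from 334.8 to 1733 CPM. The NAc punches varied in cortical signal, with a score from 2.45 to 6.06 and a summed level from 53.7 to 1373 CPM.

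The 5 synthesis enzymes and Insig1 were highest in the VTA in water libraries, and Abca1 was not. Hmgcs1 ranged from 519 to 782 CPM in the 9 VTA water libraries (median 627), from 314 to 638 in VBT (median 420), from 328 to 423 in PrL (median 393), from 255 to 458 in NAc (median 354) and from 224 to 339 in S1 (median 297). The VTA libraries lay above those of PrL, NAc and S1 without overlap, and overlapped those of VBT. The means were 639 ± 82.8 (SD, n = 9) in VTA and 291 ± 44.4 (SD, n = 9) in S1, a ratio of 2.20. VBT with PrL, and PrL with NAc, differed by less than 1 SD.

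Idi1 followed the same order at the top. Its water libraries spanned 118 to 189 CPM in VTA (median 146), 60.0 to 139 in VBT (median 94.0), 56.3 to 88.7 in NAc (median 73.3), 49.7 to 80.3 in S1 (median 67.6) and 58.1 to 73.9 in PrL (median 62.0). VTA overlapped VBT only. NAc and S1, and S1 and PrL, differed by less than 1 SD.

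Fdft1 and Sqle kept VTA apart from every other region. Fdft1 spanned 118 to 134 CPM in VTA (median 122), 55.4 to 97.2 in PrL (median 78.5), 57.5 to 82.5 in NAc (median 71.3), 54.4 to 65.5 in S1 (median 57.8) and 44.7 to 73.3 in VBT (median 51.8). Sqle spanned 110 to 139 CPM in VTA (median 125), 51.7 to 85.7 in NAc (median 71.2), 56.0 to 78.9 in PrL (median 69.9), 50.3 to 86.9 in VBT (median 63.2) and 39.7 to 56.3 in S1 (median 52.4). VBT, which stood second for Hmgcs1 and Idi1, had the lowest Fdft1 median, though it differed from S1 by less than 1 SD.

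Lss had the smallest regional ratio of the 6, 1.76 between VTA and S1. It spanned 74.3 to 97.9 CPM in VTA (median 80.6), 43.0 to 71.3 in VBT (median 54.4), 49.1 to 60.4 in NAc (median 53.7), 44.9 to 54.2 in PrL (median 50.4) and 40.8 to 56.4 in S1 (median 48.9). Insig1 had the largest ratio, 2.46 between VTA and PrL. It spanned 177 to 216 CPM in VTA (median 192), 101 to 143 in VBT (median 114), 71.9 to 104 in NAc (median 78.0), 65.4 to 91.8 in S1 (median 78.7) and 63.1 to 92.5 in PrL (median 79.9). For both genes the VTA libraries lay above all others.

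Abca1 was the flattest member across regions. Its water libraries spanned 57.9 to 76.1 CPM in S1 (median 66.0), 52.6 to 75.1 in VBT (median 64.2), 43.2 to 66.1 in VTA (median 54.2), 36.4 to 62.9 in NAc (median 51.8) and 33.9 to 88.5 in PrL (median 42.0). S1 and VBT differed by less than 1 SD, as did VTA and NAc, and NAc and PrL. The ratio of S1 to PrL was 1.39. Over all 98 libraries, differences between regions made up 38.6% of the variance of log2 Abca1 and 72.1% to 88.6% of that of the other 6. Differences between the groups of a region made up 23.4% for Abca1 and 1.88% to 4.79% for the other 6.

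Levels of different genes were compared per kilobase of exon, with the exons of all annotated transcripts of a gene merged. In the VTA, Hmgcs1 stood at 139 ± 18.02 CPM per kb, Insig1 at 62.4 ± 4.79, Idi1 at 40.8 ± 6.24, Fdft1 at 29.4 ± 1.42, Sqle at 22.2 ± 1.92, Lss at 7.85 ± 0.854 and Abca1 at 5.27 ± 0.678 (SD, n = 9). On this level scale, Hmgcs1 was the highest of the 7 in each region, and Lss and Abca1 were the 2 lowest. A merged length can exceed that of the transcript made, so this order need not be that of transcript abundance. In bulk tissue, a lower level can mean fewer cells of a type or less RNA per cell, which cannot be told apart here.

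**Figure D1:**
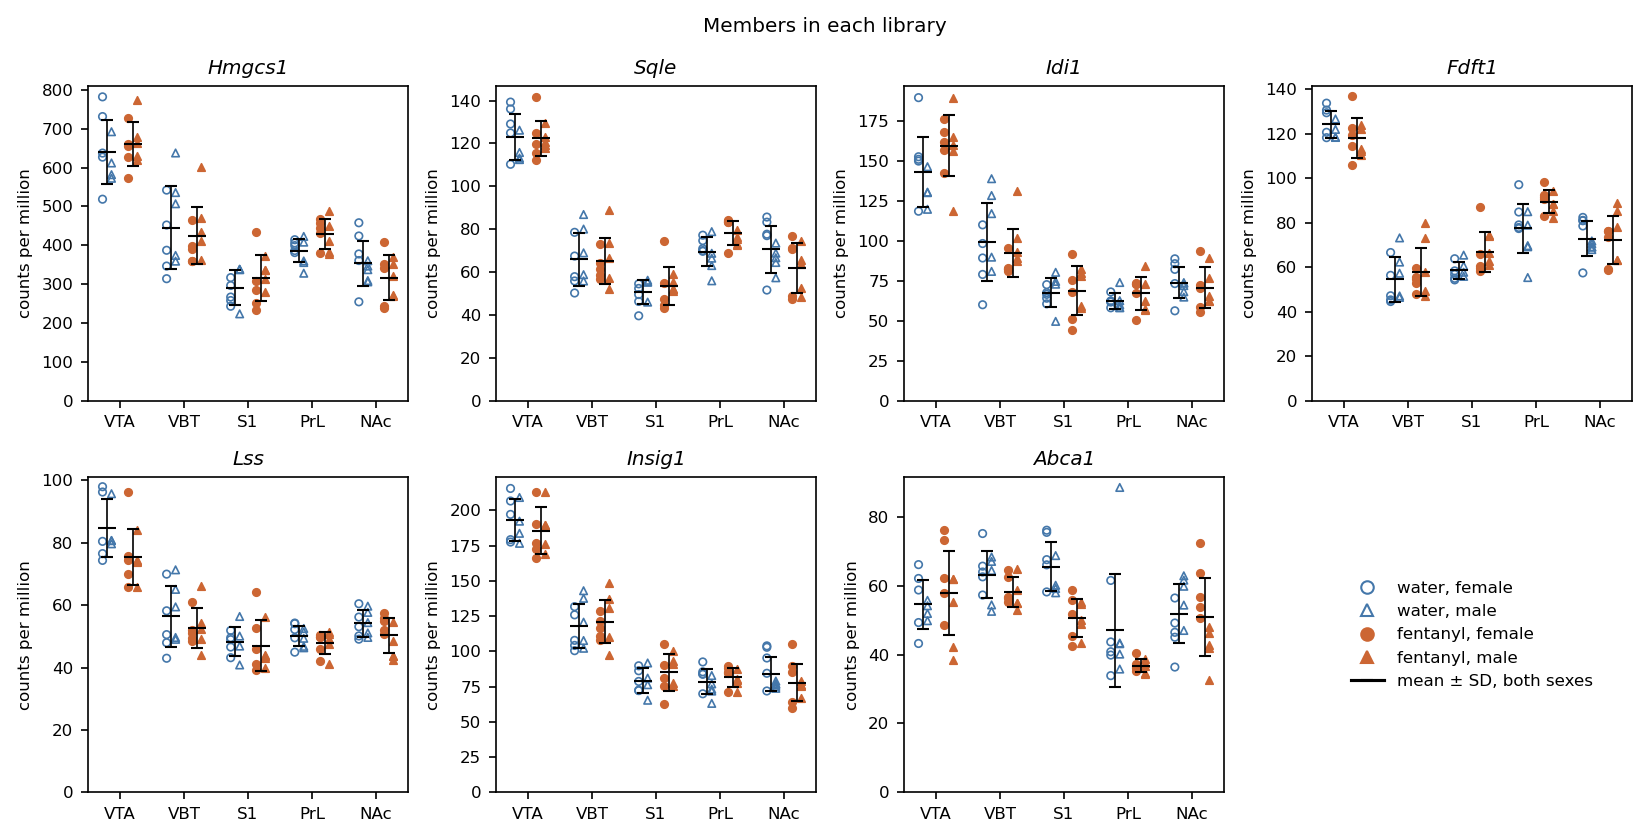
Each panel plots 1 member in CPM (vertical axis, from 0) for every library used, by region. Open symbols are water and filled symbols fentanyl libraries, circles females and triangles males, and bars give mean ± SD of both sexes. The VTA libraries stand highest for all members except Abca1, and a single PrL water library reaches 88.5 for Abca1.

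The order of the regions by oligodendrocyte markers was another one. The mean log2 score of 10 oligodendrocyte markers was 10.0 in VBT, 9.72 in VTA, 8.48 in NAc, 7.55 in S1 and 5.90 in PrL. PrL thus had the lowest marker level, with 812 to 3240 CPM summed over the list against 18630 to 50010 in VBT, and its Hmgcs1, Sqle and Fdft1 means were higher than those of S1. The Lss means of PrL and S1 differed by less than 1 SD, as did those of Idi1 and Insig1. Of the pathway genes outside the members, Cyp46a1, the neuronal hydroxylase that turns cholesterol over, stood at 63.8 ± 8.53 CPM in VTA (SD, n = 9) and at 222 ± 38.0 in VBT (SD, n = 10).

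Fentanyl was set against water within each region and sex, with edgeR fits over 18923 to 19822 genes a region. A gene was called at an adjusted p under 0.05. Among females, S1 had 0.142% of genes called, PrL 0.021%, and the 3 other regions 0%. Among males, VTA had 22% called, NAc 0.662%, and VBT, S1 and PrL 0%. The mean of the sexes gave 23.1% in VTA, 1.03% in S1, 0.697% in PrL, and 0% in both VBT and NAc. For the difference between the sexes in their response, no gene was called in any region (0%). Of the 7 members, Abca1 passed this threshold, in S1, in females and in the mean of the sexes, and no other member passed in any of these comparisons. The call in S1 females was kept in 14 of 30 alternatives, among them 6 of the 19 that leave out 1 library, and that in the mean of the sexes in 28 of 29. Among omissions of a female library, only that of S1 female fentanyl 3 kept the female call, and the rest of the 6 left out a male library. The members were selected on these contrasts, so nothing is read from the member calls.

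In S1, Abca1 was lower with fentanyl in both sexes. In females it measured 51.7, 42.4, 58.7, 55.7 and 45.3 CPM with fentanyl and 67.6, 66.0, 75.5, 76.1 and 58.2 CPM with water. The highest fentanyl library lay just above the lowest water library, and the others did not overlap. The log2 fold change was -0.44 ± 0.09 (SE), or 0.736-fold. In males it measured 50.1, 55.2, 43.4, 54.7 and 48.9 CPM with fentanyl and 68.7, 60.1, 57.9 and 59.2 CPM with water. All fentanyl males lay below all water males. Their log2 fold change was -0.26 ± 0.10 (SE), and the mean of the sexes was -0.35 ± 0.07 (SE). The response differed between the sexes by 0.18 ± 0.13 (SE, log2).

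Other measures moved with it in S1. Abca1 has 10.4 kb of exons, against a median of 3.93 kb for genes tested in all regions. In S1 females, Spearman's rho across genes between exon length and a library's log2 level relative to the region mean averaged -0.157 ± 0.0944 (SD, n = 5) with fentanyl and 0.123 ± 0.0743 (SD, n = 5) with water. Correcting each library for its length trend gave an Abca1 log2 fold change of -0.36 in S1 females and -0.31 in the mean of the sexes. The same rho for GC content averaged 0.153 ± 0.174 (SD, n = 5) with fentanyl and -0.205 ± 0.169 (SD, n = 5) with water in S1 females. Offsets for that trend gave -0.42 ± 0.09 (SE) in females and -0.33 ± 0.06 (SE) in the mean of the sexes. With a covariate for reads outside exons, these values were -0.41 ± 0.09 and -0.31 ± 0.07 (SE). That percent was 13.8 ± 1.57 (SD, n = 5) with fentanyl and 14.5 ± 0.856 (SD, n = 5) with water in females. Leaving out 1 S1 library at a time gave female values from -0.50 (without female fentanyl 3) to -0.39. The score of 6 astrocyte markers, of which none was at 0, was 8.05 ± 0.228 (SD, n = 5) with fentanyl and 8.17 ± 0.112 (SD, n = 5) with water in S1 females, with sums of 4131 to 5847 CPM and 5527 to 6479 CPM. In males it was 7.98 ± 0.190 (SD, n = 5) and 8.17 ± 0.158 (SD, n = 4), with sums of 4093 to 5734 CPM and 5130 to 6577 CPM. The score of 5 cortical markers, none at 0, was 6.82 ± 0.118 (SD, n = 5) with fentanyl and 6.69 ± 0.0736 (SD, n = 5) with water in females, and 6.84 ± 0.0913 (SD, n = 5) and 6.72 ± 0.0722 (SD, n = 4) in males. Its sums were 1406 to 1705 CPM and 1245 to 1485 CPM in females, and 1478 to 1752 CPM and 1368 to 1513 CPM in males. The score of 5 endothelial markers, none at 0, was 5.53 ± 0.163 (SD, n = 5) with fentanyl and 5.59 ± 0.169 (SD, n = 5) with water in females, and 5.43 ± 0.201 (SD, n = 5) and 5.68 ± 0.134 (SD, n = 4) in males. Its sums were 210.8 to 296 CPM and 233 to 304.5 CPM in females, and 217 to 289 CPM and 266 to 320.0 CPM in males. Within S1, Abca1 had r = -0.74 with the cortical score, 0.58 with the endothelial and 0.49 with the astrocyte score (19 libraries, centred on group means). The part of these markers in the Abca1 value was not tested.

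In PrL, the Abca1 difference was smaller without 2 water libraries. Females measured 36.1, 40.4, 35.4, 36.6 and 37.2 CPM with fentanyl and 33.9, 39.9, 40.8, 43.7 and 61.5 CPM with water. Males measured 34.5, 37.7, 34.5, 36.8 and 38.7 CPM with fentanyl and 40.1, 35.8, 88.5, 43.4 and 43.2 CPM with water. The fentanyl libraries thus lay in a narrow band that overlapped the water libraries in both sexes. The log2 fold change was -0.21 ± 0.18 (SE) in females and -0.43 ± 0.18 (SE) in males. Without PrL female water 5 and PrL male water 3 it was -0.07 ± 0.07 (SE) in females and -0.15 ± 0.07 (SE) in males. Both libraries held the highest Abca1 of their water groups, so a smaller difference followed from the choice. These 2 libraries also had the lowest scores of the 5 cortical markers in PrL, 6.71 and 6.45, against 6.97 or more in the other 18 PrL libraries. They had the highest scores of the 6 VTA markers in PrL, 1.19 and 1.78, against at most 0.744 in the others, and the highest astrocyte scores, 8.11 and 8.38. Summed over the VTA markers, these groups reached 32.1 CPM in female and 69.3 CPM in male water libraries, and at most 2.99 CPM with fentanyl. Of these markers 1 or 2 were at 0 in each PrL group. Within PrL, Abca1 had r = 0.93 with the VTA score, -0.90 with the cortical, 0.86 with the thalamic and 0.74 with the astrocyte score (20 libraries, centred on group means). The 2 libraries named above are among these 20, and r without them was not computed. The part of these markers in the Abca1 values was not tested.

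In NAc, Abca1 went opposite ways in the 2 sexes. Females measured 72.4, 63.7, 56.7, 53.8 and 50.7 CPM with fentanyl and 46.5, 36.4, 56.4, 45.0 and 49.2 CPM with water. Males measured 42.0, 46.4, 32.6, 48.0 and 42.9 CPM with fentanyl and 54.4, 61.6, 62.9, 59.8 and 47.0 CPM with water. The groups overlapped in 1 or a few libraries in each sex. The log2 fold change was 0.34 ± 0.12 (SE) in females and -0.40 ± 0.12 (SE) in males, a difference between the sexes of -0.74 ± 0.17 (SE). Leaving out 1 NAc library at a time, that difference ran from -0.80 to -0.65, the female value from 0.26 to 0.41 and the male value from -0.46 to -0.32. Over the other alternatives the difference ran from -0.82 (limma-voom) to -0.59 (length offsets). With length offsets the male value was -0.26 ± 0.11 (SE). The score of the 5 cortical markers, none at 0, averaged 4.28 ± 1.39 (SD, n = 5) with fentanyl and 5.39 ± 0.903 (SD, n = 5) with water in females, with sums of 53.7 to 821 CPM and 247 to 1373 CPM. In males it averaged 4.34 ± 1.27 (SD, n = 5) and 4.61 ± 0.330 (SD, n = 5), with sums of 87.0 to 759 CPM and 360 to 700.2 CPM. The score of 4 neuronal markers, none at 0, was 9.01 ± 0.260 (SD, n = 5) with fentanyl and 9.38 ± 0.231 (SD, n = 5) with water in females, and 9.065 ± 0.245 and 9.05 ± 0.0356 (SD, n = 5 each) in males. Its sums were 2465 to 3446 CPM and 2971 to 4390 CPM in females, and 2655 to 3550 CPM and 2851 to 3079 CPM in males. The striatal score, with none of its 6 markers at 0, was 8.49 ± 0.252 (SD, n = 5) with fentanyl and 7.81 ± 0.558 (SD, n = 5) with water in females, and 8.42 ± 0.4955 and 8.19 ± 0.238 (SD, n = 5 each) in males. Its sums were 2198 to 3251 CPM and 1096 to 3014 CPM in females, and 1645 to 3798 CPM and 1689 to 2616 CPM in males. Within NAc, Abca1 had r = -0.67 with the neuronal, -0.55 with the cortical and 0.30 with the striatal score, and r = 0.67 with the length trend (20 libraries, centred on group means). The part of these measures in the Abca1 values was not tested.

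In VTA and VBT the Abca1 groups overlapped. VTA females measured 73.3, 76.2, 62.3, 57.8 and 48.6 CPM with fentanyl and 49.3, 62.1, 66.1, 58.7 and 43.2 CPM with water, a log2 fold change of 0.18 ± 0.13 (SE). In VTA males it was 0.01 ± 0.14 (SE), and in VBT -0.14 ± 0.08 (SE) in females and -0.11 ± 0.08 (SE) in males. Within VTA, Abca1 had r = -0.85 with the oligodendrocyte and 0.81 with the astrocyte score (19 libraries, centred on group means).

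The synthesis genes in PrL were as follows. Fdft1 in PrL males measured 94.3, 88.4, 88.4, 82.2 and 85.3 CPM with fentanyl and 79.0, 69.8, 55.4, 85.0 and 69.3 CPM with water, a log2 fold change of 0.31 ± 0.09 (SE). Sqle in PrL females measured 83.5, 68.8, 84.5, 83.9 and 83.2 CPM with fentanyl and 77.3, 69.8, 71.0, 70.1 and 74.7 CPM with water, a log2 fold change of 0.18 ± 0.08 (SE). In each case 1 library broke an otherwise complete separation. The 55.4 CPM is that of PrL male water 3, which also had the lowest Hmgcs1 and Sqle of its group, 328 and 56.0 CPM. Within PrL, Fdft1 had r = -0.79 with the thalamic, 0.69 with the cortical and -0.66 with the astrocyte score (centred on group means). PrL male water 3 and PrL female water 5 are included in these r. The part of these markers in the PrL values was not tested. In PrL the log2 fold changes of Hmgcs1, Sqle, Idi1 and Fdft1 lay between 0.11 and 0.31 in both sexes, that of Insig1 was 0.04 in females and 0.13 in males, and that of Lss was -0.07 and -0.02. The percent of reads outside exons was 10.4 ± 0.632 (SD, n = 5) with fentanyl and 12.6 ± 0.791 (SD, n = 5) with water in PrL females, and 11.2 ± 0.706 (SD, n = 5) and 12.98 ± 0.738 (SD, n = 5) in males. With that percent as a covariate, the female log2 fold changes of the 5 enzymes and Insig1 ran from -0.05 ± 0.17 (SE, Idi1) to 0.11 ± 0.12 (SE, Sqle). The male values ran from -0.04 ± 0.15 (SE, Idi1) to 0.19 ± 0.13 (SE, Fdft1), with Sqle at 0.14 ± 0.11 (SE). Abca1 was then at 0.10 ± 0.28 (SE) in females and -0.18 ± 0.25 (SE) in males.

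In S1 the groups overlapped for each synthesis member and Insig1. Fdft1 measured 59.7, 66.1, 60.6, 58.6 and 87.0 CPM with fentanyl and 63.9, 58.4, 54.4, 55.1 and 56.9 CPM with water in S1 females, a log2 fold change of 0.19 ± 0.08 (SE), and its male value was 0.20 ± 0.09 (SE). S1 female fentanyl 5 was the highest S1 library for Hmgcs1 (433 CPM), Sqle (74.7 CPM), Idi1 (91.7 CPM), Fdft1 (87.0 CPM), Lss (64.1 CPM) and Insig1 (106 CPM). It also had the highest S1 score of oligodendrocyte markers, 9.22, against 6.80 to 8.44 in the other S1 libraries. The remaining synthesis members and Insig1 had log2 fold changes between -0.08 and 0.18 in S1.

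In NAc females, 2 fentanyl libraries and 1 water library were low. Hmgcs1 measured 244, 239, 342, 352 and 408 CPM with fentanyl and 424, 361, 255, 378 and 458 CPM with water, a log2 fold change of -0.25 ± 0.15 (SE). Libraries 1 and 2 of the fentanyl group and library 3 of the water group were low, and the same 3 libraries were the lowest of the 10 for Sqle, Idi1, Fdft1 and Insig1. Their cortical scores were 2.45, 3.15 and 3.84, against 4.96 or more in the other 7. Lss did not follow them, at 50.6, 51.9, 54.8, 57.4 and 55.7 CPM with fentanyl and 50.1, 53.1, 56.2, 49.1 and 60.4 CPM with water, a log2 fold change of 0.00 ± 0.07 (SE). In NAc males the log2 fold change was -0.19 ± 0.07 (SE) for Lss and 0.15 ± 0.11 (SE) for Fdft1, and between -0.09 and 0.05 for Hmgcs1, Sqle, Idi1 and Insig1. With length offsets the Lss value was -0.06 ± 0.07 (SE). Lss has 10.8 kb of exons, and the length trend differed between the NAc male groups, as given below for Lrp1.

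In VTA males, Idi1 measured 189, 160, 156, 165 and 118 CPM with fentanyl and 130, 130, 120 and 146 CPM with water. One fentanyl library lay below all water libraries and the other 4 above them, and the log2 fold change was 0.30 ± 0.13 (SE). Without VTA male fentanyl 5, the library below the water group, it was 0.40 ± 0.12 (SE), a rise that followed from that choice. The longest transcript of Idi1 has 41.9% GC, and the GC trend differed between the VTA male groups, as given below. The part of that trend in the Idi1 value was not tested. The other synthesis members and Insig1 had log2 fold changes between -0.14 and 0.17 in VTA males and between -0.17 and 0.06 (with Idi1) in VTA females. In VBT all 6 lay between -0.16 and 0.08 in both sexes, with SEs of 0.10 to 0.16.

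**Figure D2:**
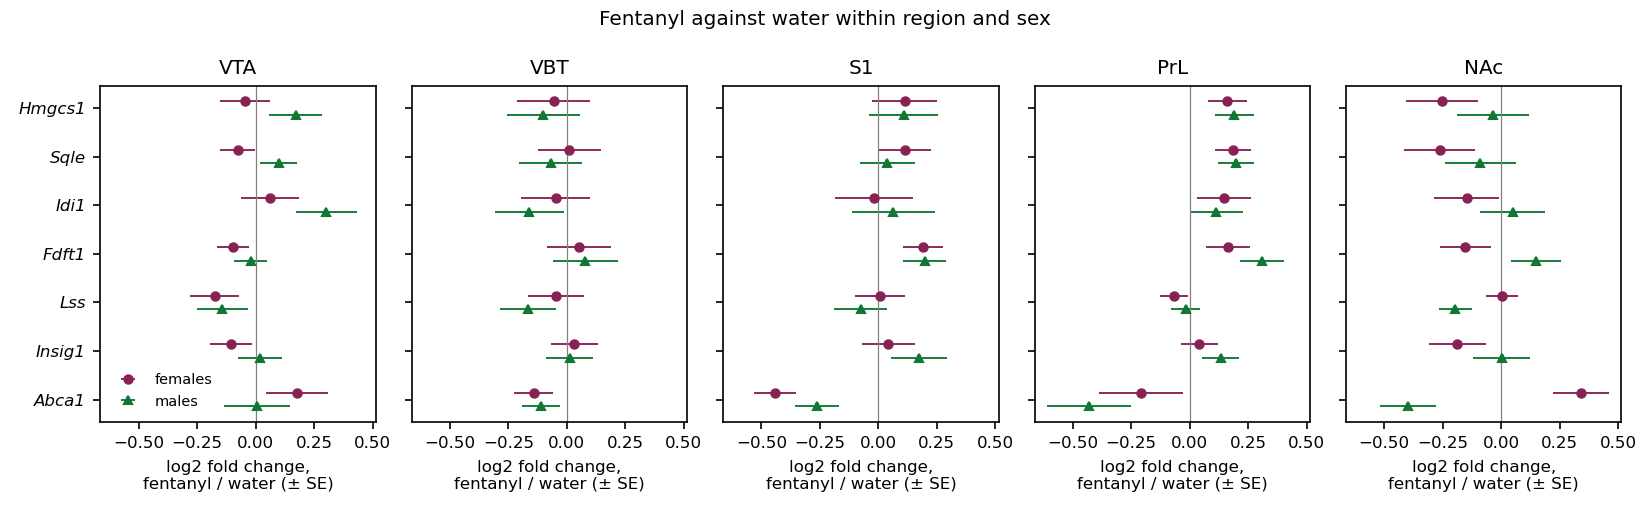
Each panel is 1 region, with the log2 fold change of fentanyl over water (horizontal axis) and its standard error for each member (rows), circles for females and triangles for males. Abca1 lies left of 0 in both sexes in S1, at -0.44 and -0.26, and on opposite sides in NAc, at 0.34 and -0.40.

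The groups of a sex did not overlap for 1 member in 1 region, Abca1 in S1 males. Among all genes tested, fentanyl and water females did not overlap for 4.22% in S1, 2.18% in PrL, 2.06% in VBT, 1.61% in VTA and 0.755% in NAc. For males, VTA had 22.4%, NAc 3.5%, PrL 2%, S1 1.72% and VBT 0.967%.

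Sex was compared among the water libraries, a contrast the choice of members did not itself use. That choice did use the levels of these same libraries, so the member values below are a description. edgeR called none of the 7 members in any region, where VBT had 0.0898% of genes called, S1 0.0557%, NAc 0.0513%, VTA 0.0504% and PrL 0.0472%. DESeq2 and limma-voom also called none. At an unadjusted p under 0.05, edgeR gave 5 of the 35 member values. Over all genes the share at that p was 10.8% in VTA, 10.7% in NAc, 7.82% in VBT, 3.98% in S1 and 3.403% in PrL. The 5 values were Idi1 in VBT, with a male-minus-female log2 difference of 0.34 ± 0.15 (SE), Fdft1 and Insig1 in PrL, with -0.20 ± 0.09 and -0.17 ± 0.08 (SE), and Insig1 and Abca1 in NAc, with -0.30 ± 0.12 and 0.26 ± 0.12 (SE).

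Within groups, the 5 synthesis enzymes and Insig1 went up and down together from library to library. After each group's mean log2 level was subtracted, Pearson's r over the 98 libraries for the 15 pairs of these 6 genes ran from 0.53 (Idi1 with Lss) to 0.92 (Hmgcs1 with Sqle), with a median of 0.74. The libraries share their depth and base composition, so these values are a description. By region the median r was 0.91 in VBT, 0.78 in NAc, 0.74 in S1, 0.69 in VTA and 0.47 in PrL. Lss was the loosest of them, with r of 0.04 to Hmgcs1 in PrL and 0.28 in NAc, against 0.97 in VBT. Leaving out, for each pair, the 2 libraries farthest from the group mean in the first-listed gene alone, r ran from 0.48 to 0.90.

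Abca1 stood outside this group. Its r with the 6 ran from -0.41 (Fdft1) to -0.03 (Lss), with a median of -0.27. With TMM-scaled values it ran from -0.60 to -0.21 (median -0.39), and after removal of a GC content trend from -0.57 to -0.21 (median -0.43). With the mean z-score of the 6, Abca1 had r = -0.29 over all 98 libraries (Spearman's rho -0.35), and -0.63 in VTA, -0.52 in NAc, -0.34 in PrL, -0.14 in S1 and -0.05 in VBT. With TMM-scaled values and after removal of the GC content trend, the r over all 98 was -0.45 and -0.48. Over the 98 libraries its r was 0.53 with the astrocyte score and 0.47 with the length trend.

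**Figure D3:**
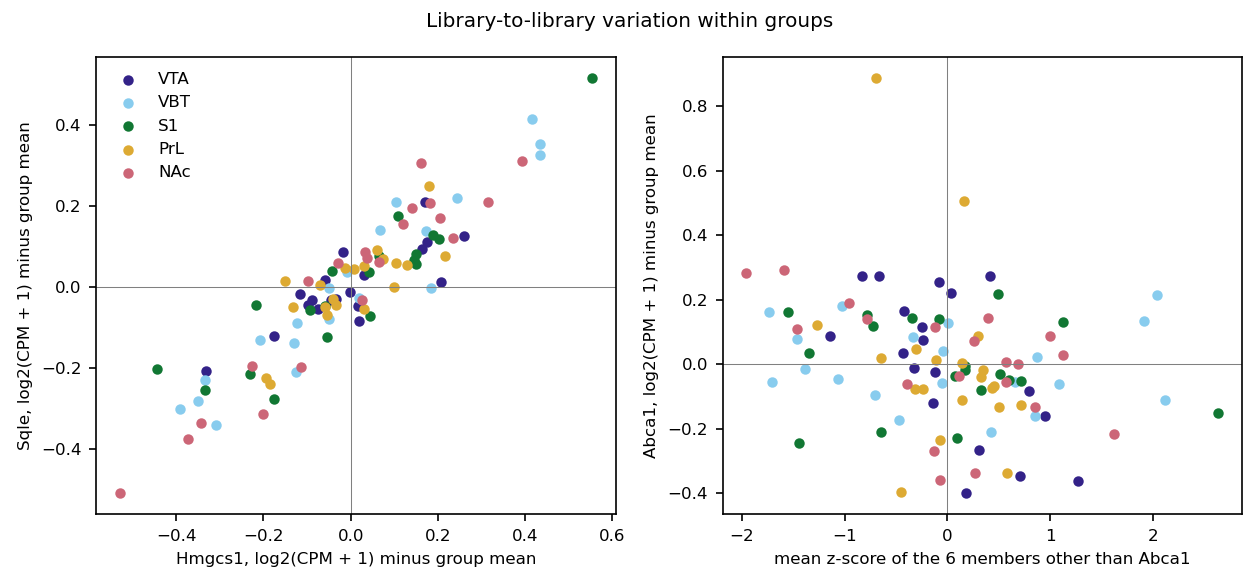
Each point is 1 of the 98 libraries, coloured by region. The left panel plots Sqle against Hmgcs1, both as log2(CPM + 1) minus the group mean (r = 0.92), and the right panel plots Abca1 on the same scale against the mean z-score of the other 6 members (r = -0.29).

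The marker scores that moved with the 6 genes are given by region, as a description. Their mean z-score had r = 0.86 with the oligodendrocyte score in VBT, 0.84 in S1 and 0.78 in VTA, but 0.22 in NAc and 0.05 in PrL. In VBT it also had r = 0.80 with the astrocyte, 0.77 with the microglial, -0.76 with the thalamic, -0.72 with the neuronal, 0.70 with the blood marker and 0.67 with the striatal score. VBT male water 3 and VBT female water 2 had the lowest thalamic scores there, 6.41 and 6.995, and the highest striatal scores, 6.52 and 5.91, and the latter had a choroid plexus score of 7.98, the highest in VBT. Without both, the median r of the 15 pairs in VBT was 0.87, and the oligodendrocyte, thalamic, blood and striatal r were 0.79, -0.70, 0.63 and 0.42 (18 libraries). In NAc it instead had r = 0.92 with the score of 4 neuronal markers, 0.90 with the cortical and -0.78 with the striatal score. With the score of 6 precursor markers it had r = 0.85 in S1, 0.79 in VBT, 0.64 in VTA, 0.39 in NAc and 0.09 in PrL. The r with the library's GC trend was 0.02 over all libraries, 0.40 in NAc and -0.25 in S1, and with depth it was -0.14 over all. With the percent of reads outside exons it was 0.67 in VBT, 0.65 in S1, 0.06 in VTA, -0.04 in PrL and -0.64 in NAc. The part of these measures in the shared variation was not tested.

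By the likeness rule, the nearest genes were other genes of the pathway for Hmgcs1, Idi1, Fdft1 and Insig1. Of the 17595 genes tested in every region, those with the highest r were Sqle and Cyp51 for Hmgcs1 (0.92 and 0.90), Cyp51 and Msmo1 for Idi1 (0.89 and 0.89), and Sqle and Hmgcs1 for Fdft1 (0.87 and 0.78). They were Msmo1 and Cyp51 for Insig1 (0.84 and 0.82). The nearest gene to Sqle was Hmgcs1 (0.92), and among the nearest 2 to Lss was Srd5a1 (0.78). Cyp51 and Msmo1 encode demethylating enzymes that act on lanosterol and its products. Srd5a1, a steroid 5-alpha reductase, was on none of the lists. For Abca1 the nearest were Ppp6r3 (0.78) and Anapc1 (0.77), and with TMM-scaled values Dennd4c (0.73) and Lrba (0.71).

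The rest of the pathway was read against the mean z-score of the 6. Of the 6 early synthesis genes, 5 had r over 0.5, among them Acat2 at 0.73 and Mvd at 0.69, and Pmvk was lowest at 0.33. Of the 9 late synthesis genes, 8 did, led by Cyp51 at 0.91, Msmo1 at 0.90 and Sc5d at 0.85, with Tm7sf2 at 0.35. Among all 17595 genes, 2.60% had r over 0.5 and the median r was 0.05. Among genes of uptake and transport, Stard4 stood at 0.62 and Npc2 at 0.61, both of which serve sterol transport inside the cell, while the receptor gene Lrp1 stood at -0.46.

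Regulators and efflux genes did not share this pattern. Of the 10 regulators, Srebf2, which encodes SREBP-2, had r = 0.59 and was the 1 over 0.5, while Scap stood at 0.02 and Srebf1 at 0.04. All 3 efflux and carrier genes lay below 0, with Abcg1 at -0.54, Abcg4 at -0.37 and Apoe at -0.15. Among the 4 turnover genes with a value, Cyp46a1 stood at -0.56 and the lysosomal lipase gene Lipa at 0.53.

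**Figure D4:**
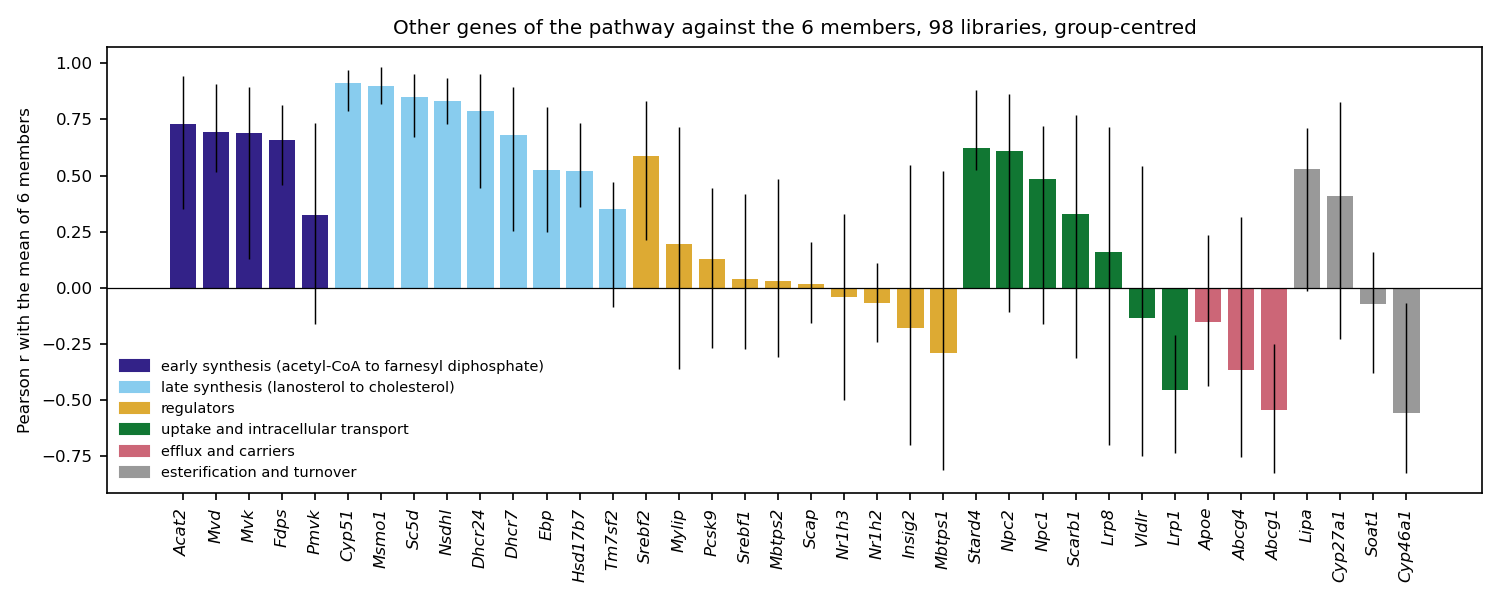
Bars give Pearson's r (vertical axis) of other pathway genes with the mean z-score of the 6 members over 98 libraries, coloured by role, and lines span the lowest to highest r of the 5 regions. The synthesis genes shown stand above 0 and the 3 efflux and carrier genes below it, from 0.91 for Cyp51 to -0.56 for Cyp46a1.

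Synthesis genes outside the members were also counted for their fentanyl contrasts, which share the water libraries with those of the members. In PrL, 9 of the 9 late synthesis genes had a log2 fold change above 0 in females (median 0.14) and 9 of 9 in males (median 0.12), where 47.9% and 47.8% of all genes did. In NAc females, 1 of 9 did (median -0.16), where 50.2% of all genes did. The counts above 0 were 2 of 9 in NAc males, 7 and 9 in S1 females and males, 5 and 4 in VBT, and 2 and 5 in VTA. None passed the edgeR threshold in PrL or in NAc females, and at an unadjusted p under 0.05 there were 2 of the 9 in PrL females, 0 in PrL males and 0 in NAc females. Over all genes, 9.53%, 11.97% and 9.03% had such a p. DESeq2 and limma-voom called none of the 9 in these 3 contrasts. The percent of reads outside exons also differed between the PrL groups, as given above, and with it as a covariate 5 of 9 lay above 0 in PrL females (median 0.01) and 7 of 9 in males (median 0.04). NAc females include the 3 libraries of low cortical score, whose part in the count was not tested. The PrL counts include PrL female water 5 and PrL male water 3, whose part was not tested either.

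Of the other pathway genes, edgeR called 14 of the 40 tested in VTA males. Higher with fentanyl were Mbtps2, a protease that cuts SREBPs, at a log2 fold change of 0.37 ± 0.08 (SE, adjusted p = 0.00426), Sc5d at 0.26 ± 0.08 and Msmo1 at 0.23 ± 0.08. The other 11 were lower. The 6 with the smallest p were Lrp1 at -0.49 ± 0.08 (SE, adjusted p = 0.00218), Apoe at -0.80 ± 0.15 (SE, adjusted p = 0.00299), Srebf1 at -0.44 ± 0.09, Tm7sf2 at -0.37 ± 0.08, Srebf2 at -0.31 ± 0.07 and Pmvk at -0.42 ± 0.10. Apoe, which encodes the main apolipoprotein of the brain, measured 1079 ± 200 CPM (SD, n = 5) with fentanyl and 1922 ± 146 CPM (SD, n = 4) with water. Marker scores differed between these groups too, with no marker of these lists at 0. The VTA score was 5.20 ± 0.862 (SD, n = 5) with fentanyl and 6.07 ± 0.354 (SD, n = 4) with water, with sums of 334.8 to 1240 CPM and 864 to 1499 CPM. The precursor score was 5.89 ± 0.0706 and 6.07 ± 0.0379, with sums of 378 to 439 CPM and 485 to 524 CPM. The score of 4 choroid plexus markers was 2.03 ± 0.230 and 3.20 ± 1.95, with sums of 12 to 24.9 CPM and 9.45 to 1025 CPM. The astrocyte score was 8.205 ± 0.530 and 8.35 ± 0.252, with sums of 2748 to 3774 CPM and 2649 to 3233 CPM. VTA male fentanyl 1 and 4 had the lowest VTA scores of these 9 libraries, 3.94 and 4.78, and the lowest astrocyte scores, 7.59 and 7.70. The part of these markers in the pathway values was not tested. By role the 14 were 2 of 6 early and 3 of 9 late synthesis genes, 6 of 10 regulators, 2 of 8 uptake and transport genes and 1 of 3 efflux and carrier genes. The share called among all genes in this contrast was 22%, and the pathway median was -0.14 against 0.00 over all genes.

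Base composition moved with these calls. GC content is that of a gene's longest annotated transcript. The 11 lower genes had a GC content of 48.5% to 60.6% and the 3 higher genes 40.0% to 44.7%, where the median gene had 49.3%. In VTA males, rho across genes between GC content and level averaged -0.303 ± 0.174 (SD, n = 5) with fentanyl and 0.547 ± 0.0530 (SD, n = 4) with water. With offsets for each library's GC trend, 3 of the 40 were called, Apoe, Tm7sf2 and Scarb1, and 584 of all 19822 genes were called in place of 4355. Apoe then had a log2 fold change of -0.44 ± 0.11 (SE). Srebf2, Scap and Nr1h2 changed sign.

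**Figure D5:**
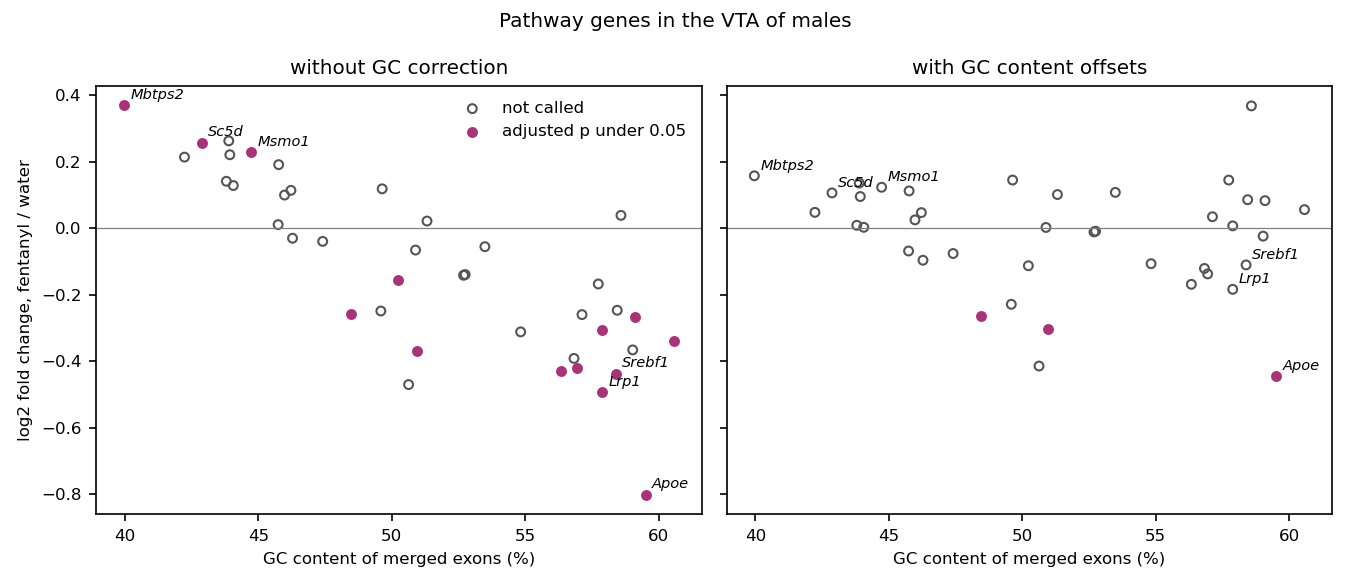
Each point is 1 of the 40 other pathway genes tested in VTA males, without correction on the left and with GC offsets on the right. The horizontal axis, though labelled as merged exons, gives the GC content of the longest annotated transcript. The vertical axis gives the log2 fold change of fentanyl over water. Filled points passed an adjusted p under 0.05. On the left the values slope from 0.37 for Mbtps2 to -0.80 for Apoe, and on the right 3 filled points remain.

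In the mean of the sexes in VTA, 15 of the 40 were called, 1 higher (Mbtps2) and 14 lower, beside 23.1% of all genes. The 6 lower genes with the smallest p were Lrp1 at -0.39 ± 0.05, Mvk at -0.37 ± 0.07, Tm7sf2 at -0.27 ± 0.06, Srebf2 at -0.22 ± 0.05, Srebf1 at -0.29 ± 0.06 and Pmvk at -0.31 ± 0.07 (SE). With GC offsets, Tm7sf2 and Lrp1 were called. In NAc males, edgeR called 1 of 40, Lrp1, a receptor for Apoe-bearing particles, at -0.49 ± 0.11 (SE, adjusted p = 0.0421), with 396 ± 45.6 CPM with fentanyl and 570 ± 28.9 CPM with water (SD, n = 5 each). It has 17717 bases of exons, and the length trend of NAc males averaged -0.179 ± 0.138 (SD, n = 5) with fentanyl and 0.112 ± 0.149 (SD, n = 5) with water. With length offsets its log2 fold change was -0.31 ± 0.08 (SE) and no longer passed. In all other regions and contrasts edgeR called 0 of the 40 or 41 tested, and at an unadjusted p under 0.05 between 0 and 9 of them, where 2.59% to 19.1% of all genes had such a p. There, DESeq2 called 1 in VTA females (Lrp1) and 3 in the NAc difference between the sexes, limma-voom called 1 in the VTA difference between the sexes, 8 between the sexes in VTA water libraries and 4 in the NAc difference between the sexes, and neither called any in the rest. Over all genes, DESeq2 called 86 in VTA females and 486 in the NAc difference. Over all genes, limma-voom called 494 in the VTA difference, 1310 in the NAc difference and 2810 of 19822, or 14.2%, between the sexes in VTA water libraries.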

How the data were processed

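Bulk RNA of 99 tissue punches was made into libraries from 10 ng with the SMART-Seq v4 kit, per the labels' protocols. The authors deposited raw read counts per gene over exons. HTSeq and GRCm38 are named per the submitters' processing notes, while the aligner, the annotation release and the strand setting are not given in the sources used here. Of 55335 identifiers, 55154 had a symbol in GENCODE M21. Closing lines that name no gene stayed out of totals: reads outside exons were 9.48% to 17.03%, reads not aligned uniquely 3.03% to 6.04% and ambiguous reads 1.41% to 2.16%. Totals ranged from 16515545 to 52069639 counts (median 35979923), and their size limits the precision of low genes only.

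CPM were computed from gene totals, and CPM per kb from merged exon lengths. Each region was fitted on its own with edgeR 4.0.16 in R 4.3.3 (quasi-likelihood test, TMM, default filter on low counts, 4 groups of sex and drink), with Benjamini-Hochberg adjustment over all genes tested. DESeq2 1.42.0, limma 3.58.1 (voom with sample weights), other filters, a replicate block, GC and length offsets and omission of each library were the alternatives. Co-variation used log2(CPM + 1) minus the group mean, in Python 3.11.15. The procedure was tested on simulated data. With 100 genes changed 2-fold in VTA males among 19549, 63 were recovered, and of 100 changed 1.5-fold, 44 were.

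Members and gene lists were chosen with earlier results of these data known. The genes named are all 7 members, at most 6 called pathway genes with the smallest p in each direction of a contrast, and the 2 genes of highest r for each member, leaving out symbols of predicted genes. The regulators and other genes named for their r alone were chosen after their values were seen. The library left out is VTA male water 3. PrL without 2 water libraries and VBT without 2 were added after seeing the data. Some values of the pathway list are not reported here.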

Additional observations from a re-analysis of the deposited data

Results flagged for a closer look

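In groups of 4 or 5 libraries, a library whose gap to its nearest neighbour was large against the range of its group was picked out for each member (Dixon's test at the 95% level). This gave 14 of 140 sets of values, where chance gives about 1 in 20, or 7. PrL female fentanyl 2 was low for Sqle at 68.79 CPM (others 83.2 to 84.47), Idi1 at 50.76 CPM (others 67.62 to 73.81) and Insig1 at 70.92 CPM (others 84.61 to 89.8). NAc female water 3 was low for Sqle at 51.68 CPM (others 77.05 to 85.71) and Fdft1 at 57.52 CPM (others 78.63 to 82.46). S1 male water 1 was low for Hmgcs1 at 223.9 CPM (others 337.3 to 338.5) and Sqle at 46.06 CPM (others 55.31 to 56.25). VBT female fentanyl 5 was high for Idi1 at 95.3 CPM (others 81 to 82.67) and Lss at 60.98 CPM (others 48.47 to 52.08).

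Single members stood apart in 5 more libraries. S1 female fentanyl 5 was high for Fdft1 at 87.02 CPM (others 58.59 to 66.14). Abca1 in PrL male water 3 was 88.5 CPM (others 35.8 to 43.35). Idi1 in PrL male water 5 was 73.91 CPM (others 58.12 to 62.56). Lss was high in VTA male water 5 at 95.66 CPM (others 79.62 to 80.7) and in S1 male fentanyl 2 at 56.07 CPM (others 39.81 to 44.05).

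The library left out of every fit, VTA male water 3, held Sqle at 232.3 CPM and Insig1 at 467.4 CPM, above the highest of the other VTA water libraries (139.3 and 215.5 CPM). It had no count for Fdft1, Lss or Abca1.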

How the results depend on the processing

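The members were chosen on these contrasts, so nothing is read from their calls. Of 270 such counts, 258 were unchanged under the alternatives. In S1 females the call of Abca1 was lost (0 members) with GC offsets, length offsets or the outside-exon covariate, and in the S1 mean of the sexes (0) with that covariate. Over all genes, calls in S1 females went from 28 to 16, 10 and 0 under these 3 settings, and in the mean from 203 to 1. In the PrL mean of the sexes 2 members were called by DESeq2, 1 by limma-voom, 2 with GC offsets and 2 with the replicate block and GC offsets, where all genes gave 778, 328, 742 and 499 calls in place of 133. In NAc males DESeq2 called 1 and limma-voom 2, and for the NAc difference between the sexes each called 1.

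For the other pathway genes, the counts that moved beyond a set tolerance were as follows. They are read against the calls over all genes, which moved too: in VTA males from 4355 to 6568 with limma-voom, 584 with GC offsets, 358 with block and GC offsets and 42 with all libraries kept, and in NAc males from 129 to 920 with DESeq2, 1573 with limma-voom, 858 with GC offsets and 2 with the block. VTA females had 1 with DESeq2. VTA males had 22 with limma-voom, 3 with GC offsets, 2 with the replicate block and GC offsets, and 1 with all libraries kept. The VTA mean of the sexes had 2, 2 and 1 under the last 3 of these, where all genes gave 732, 549 and 60 in place of 4580. With limma-voom, the VTA difference between the sexes had 1 and VTA water sex 8. The PrL mean had 1 with GC offsets and 2 with the block and GC offsets (all genes as above). NAc males had 2 with DESeq2, 3 with limma-voom, 2 with GC offsets, and 0 with the block, the block and GC offsets or the outside-exon covariate. The NAc difference had 3 with DESeq2, 4 with limma-voom, 1 with GC offsets and 1 with length offsets, where all genes gave 486, 1310, 168 and 101 in place of 0.

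With GC offsets, and then with the block as well, log2 fold changes that were negative in VTA males became 0.006839 and 0.02401 for Srebf2, 0.08268 and 0.08964 for Scap, and 0.0557 and 0.05058 for Nr1h2. In the VTA mean they became 0.03248 and 0.03528 for Scap, 0.01955 and 0.01668 for Nr1h2, and 0.07188 and 0.079 for Abcg4. The cause was not tested.

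Leaving out 1 library at a time gave 0 to 1 members in VTA males, the VTA mean, S1 females, the PrL mean and the NAc difference. Pathway calls ranged from 10 to 16 in VTA males, 12 to 18 in the VTA mean, 0 to 3 in NAc males and 0 to 2 in the NAc difference. Leaving out 2 VBT libraries that stand apart, chosen after seeing the data, moved the median r of the pairs from 0.91 to 0.87. Within a region and sex, fentanyl and water libraries of the same number did not deviate together (48 pairs, r from -0.25 to 0.23, median 0.02, with 5 over 0.1). Numbers were not compared across regions, so whether a number names the same animal there was not tested. Counting only moves beyond a set tolerance, the replicate block by itself moved 1 count, NAc male pathway genes from 1 to 0. All 21 regional ratios under TMM scaling or in 1 sex kept their direction. Depth limited no member, since each passed the filter in every region.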
